A study of Rattus norvegicus with 9 samples.

Results

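Adipogenic and lipid handling genes were examined in 9 RNA sequencing libraries of cultured rat fibroblasts (Fb), with 3 libraries each of epineurial fibroblasts (Fb-Epn), parenchymal fibroblasts (Fb-Par) and skin fibroblasts (Fb-Skn). The genes were chosen by name as *Pparg*, *Cebpa*, *Cebpb*, *Cebpd*, *Fabp4*, *Lpl*, *Cd36*, *Plin2*, *Apoe* and *Scd*. Of these 10 symbols, 9 matched 1 row each among the 32883 genes of the count table. *Cd36* was not analysed here. All 9 genes passed edgeR's default expression filter, which left 13273 genes to test. The cells came from wild-type Lewis rats, all male and 10 weeks of age, and no group received a treatment. The sciatic nerves of a pair of rats gave Fb-Epn from the epineurium, the sheath around the nerve, and Fb-Par from the parenchyma inside it, and abdominal skin of a different rat, freed of subcutaneous fat, gave Fb-Skn. All cells were passaged a single time in medium with fetal bovine serum. With these numbers of animals the 3 samples of a type cannot each be a separate rat, so errors and p-values measure the spread between samples, which may be technical. Fb-Skn differed from both nerve-derived types in tissue, animal and body site at once, and these cannot be told apart.

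The nuclear receptor PPARγ, encoded by *Pparg*, and the C/EBP transcription factors form the core of the programme by which fibroblast-like precursors become fat cells. In cultured preadipocytes, C/EBPβ and C/EBPδ act early, and PPARγ and C/EBPα act later and keep each other active. Downstream proteins bind fatty acids (FABP4), release them from lipoproteins (LPL), coat lipid droplets (PLIN2), carry cholesterol and other lipids (ApoE) or introduce a double bond into saturated fatty acids (SCD). Several of these genes are also active outside fat, *Fabp4*, *Plin2*, *Lpl* and *Apoe* among them in macrophages.

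Promoter windows were available for 6 of the 9 analysed genes, from RefSeq annotation of the GRCr8 build. *Cebpd*, *Fabp4* and *Lpl* had no entry. Each window below holds the 250 bases before an annotated start, written 5′ to 3′ on the strand of the gene. The windows of *Pparg* and *Cebpa* are shown because both genes were highest in Fb-Par and lowest in Fb-Skn, that of *Cebpb* because a gene of the same family had another order, and that of *Scd* because its order was the reverse in being highest in Fb-Skn. Capitals mark matches, on either strand, to the motif TATAAA of the common core promoter box, the motif CCAAT that binds factors such as NF-Y, the Sp1-type motif GGGCGG, the C/EBP-type motif TTGCNNAA, the nuclear receptor half-site AGGTCA, the sterol-type element TCACNCCAC or the STAT-type element TTCNNNGAA. Adjoining matches run together.
Pparg, upstream start (chr4:150096808-150097057, forward strand): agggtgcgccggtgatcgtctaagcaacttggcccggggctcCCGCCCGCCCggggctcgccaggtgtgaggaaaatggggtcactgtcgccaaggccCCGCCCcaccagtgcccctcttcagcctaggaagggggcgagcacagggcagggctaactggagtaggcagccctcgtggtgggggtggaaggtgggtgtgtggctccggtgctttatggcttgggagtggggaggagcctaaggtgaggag
Pparg, downstream start (chr4:150154522-150154771, forward strand): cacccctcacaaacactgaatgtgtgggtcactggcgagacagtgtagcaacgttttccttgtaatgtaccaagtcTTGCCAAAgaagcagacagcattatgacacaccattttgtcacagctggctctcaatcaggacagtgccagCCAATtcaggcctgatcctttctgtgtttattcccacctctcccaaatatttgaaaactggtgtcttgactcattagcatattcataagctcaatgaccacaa
Cebpa (chr1:96896334-96896583, forward strand): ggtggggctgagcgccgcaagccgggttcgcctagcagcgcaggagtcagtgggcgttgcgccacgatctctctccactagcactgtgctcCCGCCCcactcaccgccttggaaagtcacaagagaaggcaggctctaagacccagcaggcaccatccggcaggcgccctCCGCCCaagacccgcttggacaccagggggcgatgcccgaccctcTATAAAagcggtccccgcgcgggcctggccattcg
Cebpb (chr3:176816755-176817004, forward strand): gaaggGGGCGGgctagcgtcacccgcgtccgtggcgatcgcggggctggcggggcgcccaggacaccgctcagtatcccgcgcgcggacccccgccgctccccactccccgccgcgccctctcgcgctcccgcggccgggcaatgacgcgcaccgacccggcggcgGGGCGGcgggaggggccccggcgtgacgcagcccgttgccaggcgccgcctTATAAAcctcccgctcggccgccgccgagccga
Scd (chr1:253231732-253231981, reverse strand): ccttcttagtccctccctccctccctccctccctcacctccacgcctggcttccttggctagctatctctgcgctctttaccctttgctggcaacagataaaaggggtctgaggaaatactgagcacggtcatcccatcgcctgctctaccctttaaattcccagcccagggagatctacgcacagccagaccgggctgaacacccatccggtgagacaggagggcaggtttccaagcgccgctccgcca

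The windows of *Cebpa* and *Cebpb* each held 1 match to TATAAA, beginning 35 and 33 bases before the start, and 2 Sp1-type motifs. The first of these motifs occurred in 12.9% of all 33469 promoter windows of this length and the second in 30.5%. The upstream *Pparg* window held 3 Sp1-type motifs, a pair of them overlapping. The downstream *Pparg* window held 1 C/EBP-type element, 174 bases before the start, and 1 match to CCAAT. The motif TTGCNNAA occurred in 9.22% and the motif CCAAT in 34.0% of all windows. The *Scd* window held no match to any of the 7 motifs. Of the remaining windows, the 3 of *Apoe* held 0, 2 and 3 matches, of which the 2 Sp1-type motifs are the same sites in a pair of overlapping windows, and the 2 of *Plin2* held 1 and 0, all of the Sp1-type or CCAAT motifs. The nuclear receptor, sterol-type and STAT-type motifs, which occurred in 14.1%, 0.974% and 7.67% of all windows, were in none of the 10 windows of these genes. The deposited counts are per gene and do not separate the starts of *Pparg*, *Apoe* or *Plin2*.

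The analysed genes differed among the 3 types in almost every comparison. Between Fb-Epn and Fb-Skn, 9 of 9 genes had an adjusted p under 0.01 in edgeR's quasi-likelihood test, against 43.9% of all tested genes, with 7 higher and 2 lower in Fb-Epn. Between Fb-Epn and Fb-Par, 9 of 9 passed, against 38.8% of all tested genes, with 6 higher and 3 lower in Fb-Epn. Between Fb-Par and Fb-Skn, 8 of 9 passed, against 45.6% of all tested genes, with 6 higher and 2 lower in Fb-Par. Some 16.5% of all tested genes passed in all 3 comparisons. DE genes, defined by a further requirement of a log2 fold change beyond 2 in either direction, numbered 4 between Fb-Epn and Fb-Skn (8.44% of all tested genes), 1 between Fb-Epn and Fb-Par (6.48%) and 5 between Fb-Par and Fb-Skn (8.54%). The median log2 fold change of the 9 genes was 1.62, 0.77 and 0.54 in these comparisons, and it was the same with *Pparg* placed at its lower bound against Fb-Skn, while the median of all tested genes lay between -0.0121 and -0.0001843. The 3 comparisons share libraries and are not independent of each other. In bulk RNA, fewer cells that express a gene and less RNA per cell cannot be told apart.

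**Figure D1:**
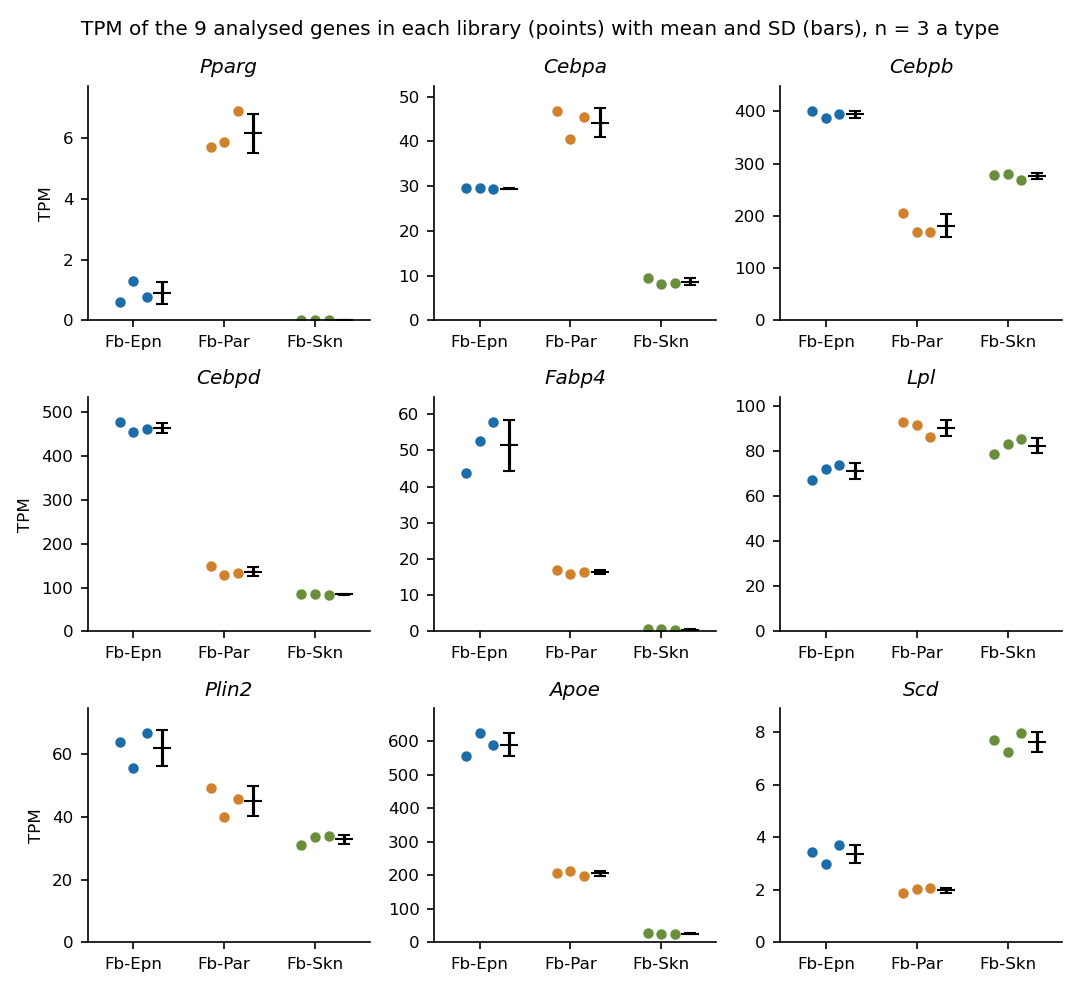
TPM (transcript level per length, scaled to a fixed total) of each of the 9 analysed genes on a linear axis from 0, with a point for each library of the 3 types and a bar for the mean and SD of 3 libraries. *Apoe*, *Cebpd* and *Fabp4* step down from Fb-Epn to Fb-Par to Fb-Skn, *Pparg* and *Cebpa* are highest in Fb-Par, and *Scd* is highest in Fb-Skn.

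*Pparg* (ENSRNOG00000008839, chromosome 4 of rn6, 147274107 to 147399380, forward strand) encodes the receptor that fat cell formation requires. Its TPM, a level corrected for gene length, was 5.72, 5.88 and 6.90 in the Fb-Par libraries and 0.607, 1.31 and 0.772 in the Fb-Epn libraries, and it was 0 in each Fb-Skn library. The types did not overlap, and even in Fb-Par only 24.6% of tested genes had a lower mean TPM. The reads behind these levels were few, with 64 to 79 counts per library in Fb-Par, 7 to 17 in Fb-Epn and 0 in Fb-Skn. The mean was 6.17 ± 0.638 TPM in Fb-Par against 0.895 ± 0.365 in Fb-Epn (SD, n = 3 each), a 6.69-fold difference (log2 fold change of Fb-Epn over Fb-Par -2.74, SE 0.31, adjusted p = 9.4e-06). Against a floor of 3 counts per Fb-Skn library, the level was at least 22.6-fold higher in Fb-Par (adjusted p = 1.1e-07), and that of Fb-Epn exceeded the floor by at least 3.29-fold (adjusted p = 6.8e-05). A count of 0 allows a level of up to that floor in Fb-Skn. The latter bound is under 4-fold, so the place of *Pparg* among the DE genes of Fb-Epn against Fb-Skn rests on edgeR's estimate.

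*Cebpa* (ENSRNOG00000010918, chromosome 1 of rn6, 91363492 to 91366164, forward strand), which encodes C/EBPα, had the same order of types as *Pparg*. The Fb-Par libraries had TPM of 46.7, 40.5 and 45.3. The Fb-Epn libraries had 29.5, 29.5 and 29.4, with a coefficient of variation of 0.204%, and the Fb-Skn libraries had 9.47, 8.02 and 8.42. No value of 1 type reached into the range of another. *Cebpa* was 4.59-fold higher in Fb-Par than Fb-Skn (log2 fold change 2.20, SE 0.09, adjusted p = 2.1e-11) and 3.08-fold higher in Fb-Epn than Fb-Skn (log2 fold change 1.62, SE 0.09, adjusted p = 9.8e-10). It was 1.49-fold higher in Fb-Par than Fb-Epn (log2 fold change of Fb-Epn over Fb-Par -0.58, SE 0.08, adjusted p = 1.6e-05). The order of types by mean TPM that *Pparg* and *Cebpa* had was that of 26.4% of all tested genes.

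*Cebpb* (ENSRNOG00000057347, chromosome 3 of rn6, 164424515 to 164425910, forward strand) encodes C/EBPβ, which is induced early in adipogenesis and also by inflammatory signals. It was abundant in all libraries, with TPM of 401, 387 and 395 in Fb-Epn, 278, 280.2 and 269 in Fb-Skn, and 206, 169 and 169 in Fb-Par. Fb-Par, where *Pparg* and *Cebpa* were highest, was thus the type with the least *Cebpb*, and again no ranges overlapped. *Cebpb* was 2.18-fold higher in Fb-Epn than Fb-Par (log2 fold change 1.13, SE 0.06, adjusted p = 1.2e-09). It was 1.68-fold higher in Fb-Skn than Fb-Par (log2 fold change of Fb-Par over Fb-Skn -0.75, SE 0.06, adjusted p = 1.1e-07). The difference between Fb-Epn and Fb-Skn was the smallest of the 3, at 1.30-fold (log2 fold change 0.37, SE 0.06, adjusted p = 0.00011).

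*Cebpd* (ENSRNOG00000050869, chromosome 11 of rn6, 89008008 to 89009146, forward strand) encodes C/EBPδ, the partner of C/EBPβ in the early step. Its TPM was 478, 456 and 462 in Fb-Epn, 149, 128 and 132 in Fb-Par, and 85.1, 86.2 and 82.2 in Fb-Skn. The Fb-Epn libraries stood far above the others, and Fb-Par lay above Fb-Skn without overlap. *Cebpd* was a DE gene between Fb-Epn and Fb-Skn with a 4.99-fold higher level in Fb-Epn (log2 fold change 2.32, SE 0.06, adjusted p = 7.8e-14). It was 3.43-fold higher in Fb-Epn than Fb-Par (log2 fold change 1.78, SE 0.05, adjusted p = 9.8e-13) and 1.46-fold higher in Fb-Par than Fb-Skn (log2 fold change 0.54, SE 0.06, adjusted p = 1.6e-06). The C/EBP genes therefore took 3 different orders among the types, with *Cebpa* highest in Fb-Par and *Cebpb* and *Cebpd* highest in Fb-Epn.

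*Fabp4* (ENSRNOG00000010805, chromosome 2 of rn6, 93792601 to 93797305, forward strand) encodes the fatty acid binding protein of fat cells and macrophages. Its TPM was 43.9, 52.6 and 57.8 in Fb-Epn and 16.95, 15.8 and 16.5 in Fb-Par. In Fb-Skn it was 0.550, 0.630 and 0.313, which rests on 1 or 2 counts per library. Fb-Epn and Fb-Par were each clear of the type below it. From the 542 counts in Fb-Epn and the 5 in Fb-Skn, the ratio of counts per library size was 99.4 (exact 95% interval 42.3 to 307, counting error only, edgeR adjusted p = 3.8e-11). The ratio of Fb-Par to Fb-Skn, with 167 counts in Fb-Par, was 31.7 (exact 95% interval 13.3 to 98.8, adjusted p = 4.1e-09). *Fabp4* was 3.15-fold higher in Fb-Epn than Fb-Par (log2 fold change 1.65, SE 0.16, adjusted p = 5.1e-07), so its order was not that of *Pparg*.

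*Lpl* (ENSRNOG00000012181, chromosome 16 of rn6, 22537056 to 22561496, reverse strand), which encodes the lipase that frees fatty acids from circulating lipoproteins, varied least among the 9 genes. Its TPM was 93.1, 91.9 and 86.6 in Fb-Par, 79.1, 83.3 and 85.5 in Fb-Skn, and 67.2, 72.4 and 73.9 in Fb-Epn. The lowest Fb-Par and the highest Fb-Skn library nearly met. *Lpl* was 1.26-fold lower in Fb-Epn than Fb-Par (log2 fold change -0.34, SE 0.05, adjusted p = 3e-05) and 1.28-fold lower in Fb-Epn than Fb-Skn (log2 fold change -0.35, SE 0.05, adjusted p = 1.7e-05). Between Fb-Par and Fb-Skn the test did not pass, with a log2 fold change of -0.02 (95% interval -0.12 to 0.08, adjusted p = 0.77). The sign of this value depended on the scaling, since it was 0.08 by library size alone and 0.13 with limma on log2(TPM + 1).

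*Plin2* (ENSRNOG00000007060, chromosome 5 of rn6, 104984414 to 105010857, reverse strand) encodes a coat protein of lipid droplets that most cell types make when they store lipid. TPM was 63.8, 55.5 and 66.7 in Fb-Epn, 49.3, 40.0 and 45.8 in Fb-Par, and 31.2, 33.4 and 33.8 in Fb-Skn. The 3 ranges followed each other without overlap. *Plin2* was 1.71-fold higher in Fb-Epn than Fb-Skn (log2 fold change 0.78, SE 0.09, adjusted p = 2.5e-06) and 1.38-fold higher in Fb-Epn than Fb-Par (log2 fold change 0.47, SE 0.08, adjusted p = 0.00029). The difference between Fb-Par and Fb-Skn was near the threshold, with a log2 fold change of 0.31 (SE 0.09, adjusted p = 0.0079). The call was lost without Fb-Epn replicate 1, Fb-Par replicate 1, Fb-Par replicate 3 or any 1 of the Fb-Skn replicates (adjusted p 0.011 to 0.041), and with upper-quartile normalization (adjusted p = 0.011).

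*Apoe* (ENSRNOG00000018454, chromosome 1 of rn6, 80612895 to 80617057, reverse strand), whose protein carries lipids between cells and is made by macrophages and Schwann cells as well as the liver, had the highest mean TPM of the 9 genes in Fb-Epn and in Fb-Par. Its TPM was 556, 623 and 588 in Fb-Epn, 207, 212 and 197 in Fb-Par, and 27.6, 26.0 and 24.8 in Fb-Skn. Each type was set off from the next by a gap several times wider than the range of its libraries. In Fb-Epn 98.3% of tested genes had a lower mean TPM than *Apoe*, and in Fb-Skn 61.5% did. *Apoe* was 20.4-fold higher in Fb-Epn than Fb-Skn (log2 fold change 4.35, SE 0.06, adjusted p = 4.1e-16) and 7.07-fold higher in Fb-Par than Fb-Skn (log2 fold change 2.82, SE 0.06, adjusted p = 4.1e-14). Between the nerve-derived types it was 2.89-fold higher in Fb-Epn (log2 fold change 1.53, SE 0.05, adjusted p = 3.2e-12).

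*Scd* (ENSRNOG00000013552, chromosome 1 of rn6, 264160129 to 264172729, reverse strand), which encodes stearoyl-CoA desaturase, the enzyme that makes monounsaturated fatty acids, was lower in both nerve-derived types than in skin. TPM was 7.71, 7.23 and 7.97 in Fb-Skn, 3.43, 2.99 and 3.69 in Fb-Epn, and 1.87, 2.03 and 2.06 in Fb-Par. None of the ranges overlapped, although no library held more than 188 counts. *Scd* was 4.26-fold higher in Fb-Skn than Fb-Par (log2 fold change of Fb-Par over Fb-Skn -2.09, SE 0.14, adjusted p = 7.9e-09) and 2.50-fold higher in Fb-Skn than Fb-Epn (log2 fold change of Fb-Epn over Fb-Skn -1.32, SE 0.13, adjusted p = 7.3e-07). It was 1.71-fold higher in Fb-Epn than Fb-Par (log2 fold change 0.77, SE 0.14, adjusted p = 0.00045). Its paralog *Scd2*, named here after its values were seen, was far more abundant at 138 ± 2.05 TPM in Fb-Epn, compared with 231 ± 8.15 in Fb-Par and 147 ± 4.31 in Fb-Skn (SD, n = 3) and was highest where *Scd* was lowest. How reads shared by such paralogs were counted is not given in the sources used here.

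**Figure D2:**
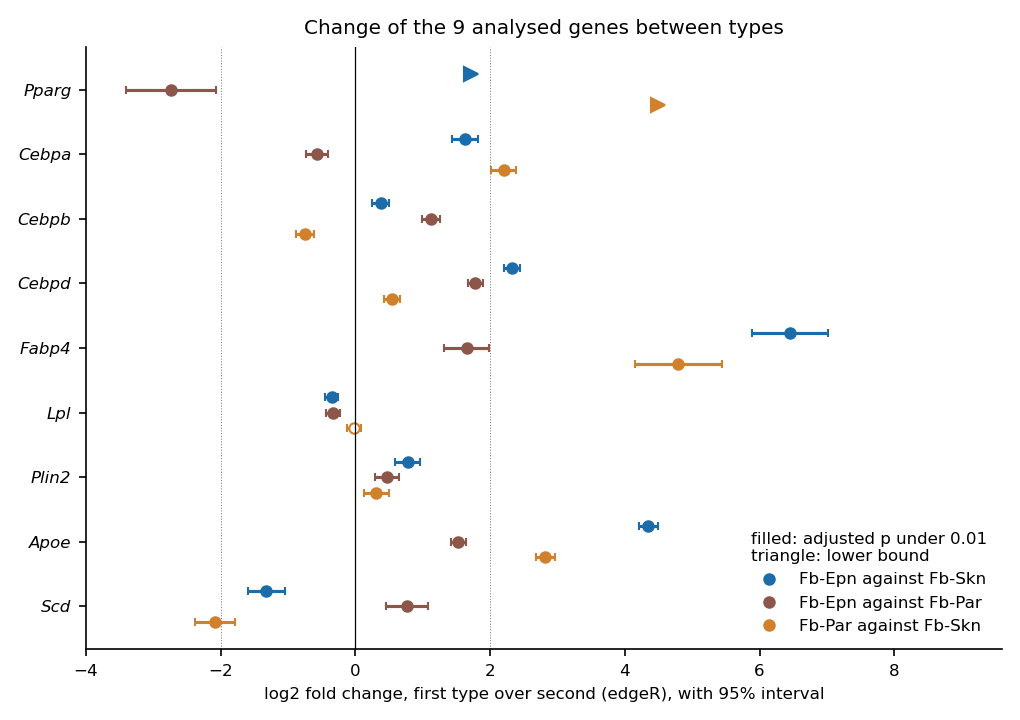
Log2 fold change between types on the x axis for each of the 9 analysed genes, with the 95% interval of edgeR's estimate; filled points have an adjusted p under 0.01, dotted lines mark -2 and 2, and triangles mark the lower bound for *Pparg* against the 0 counts of Fb-Skn. The open point is *Lpl* in Fb-Par against Fb-Skn, the 1 value that did not pass, and *Scd* lies to the left of 0 against Fb-Skn while *Apoe* and *Fabp4* lie far to the right.

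By mean TPM, *Cebpd*, *Fabp4*, *Plin2* and *Apoe* shared the order Fb-Epn, Fb-Par, Fb-Skn, which 22.2% of all tested genes had. *Pparg* and *Cebpa* ran from Fb-Par over Fb-Epn to Fb-Skn. *Cebpb* alone had the order Fb-Epn, Fb-Skn, Fb-Par (13.9% of tested genes), *Lpl* alone the order Fb-Par, Fb-Skn, Fb-Epn (13.4%) and *Scd* alone the order Fb-Skn, Fb-Epn, Fb-Par (12.7%). Within each comparison all 9 genes had TPM ranges that did not overlap, against 61.4% of tested genes between Fb-Epn and Fb-Skn, 57.3% between Fb-Epn and Fb-Par and 61.7% between Fb-Par and Fb-Skn. For *Lpl* the lowest Fb-Par value was 86.6 and the highest Fb-Skn value 85.5 TPM. Its edgeR test between these types did not pass (adjusted p = 0.77), and the sign of its change depended on the scaling. Higher in both nerve-derived types than Fb-Skn were 6 of the 9 genes, *Pparg*, *Cebpa*, *Cebpd*, *Fabp4*, *Plin2* and *Apoe*, against 13.4% of all tested genes.

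Markers of other cells moved with several of these genes. All types had the fibroblast markers, whose summed TPM was 31460 to 40260 over the 9 libraries. The 13 macrophage and leukocyte markers with a row summed to 1485 to 1572 TPM in Fb-Epn, 320 to 344 in Fb-Par and 96.8 to 104 in Fb-Skn. The sum had the same order as *Apoe*, *Fabp4*, *Cebpd* and *Plin2*. None of these markers was at 0 counts in all libraries of a type. Lysozyme *Lyz2* was the most abundant of them, at 957 ± 24.6 TPM (SD, n = 3) in Fb-Epn, compared with 178 ± 6.13 in Fb-Par and 60.6 ± 2.27 in Fb-Skn. Some were near 0, with 0 to 2 counts per library for *Adgre1* in Fb-Skn and 0 to 5 for *Cd163* in Fb-Par. Against the order of the sum, *Cd163* was at 0.0713 ± 0.124 TPM in Fb-Par and 0.279 ± 0.114 in Fb-Skn. Schwann cell markers, 9 of which had a row, summed to 806 to 826 TPM in Fb-Par, 565 to 588 in Fb-Epn and 273 to 288 in Fb-Skn, the order of *Pparg* and *Cebpa*. Of the Schwann cell markers, *Sox10*, *Erbb3* and *Cdh19* were among those at 0 counts in Fb-Skn, and *Pmp22*, which fibroblasts also express, was the most abundant. The 6 mural cell markers summed to 395 to 411 TPM in Fb-Par, 160 to 173 in Fb-Skn and 84.7 to 85.6 in Fb-Epn. The place of Fb-Skn above Fb-Epn came from *Mcam*, the most abundant, at 138 against 63.4 TPM, and from *Cspg4*. The other mural markers, *Rgs5*, *Kcnj8*, *Abcc9* and *Notch3*, were higher in Fb-Epn than Fb-Skn, and *Rgs5* and *Kcnj8* were at 0 counts in Fb-Skn. The 9 endothelial markers with a row summed to 33.7 to 38.5 TPM in Fb-Epn, compared with 26.1 to 27.1 in Fb-Par and 24.3 to 34.3 in Fb-Skn, and the most abundant of them, *Egfl7*, was highest in Fb-Skn at 29.3 ± 5.23 TPM, against 19.7 ± 2.53 in Fb-Epn and 14.7 ± 0.886 in Fb-Par. The sum hid other orders. *Cdh5*, *Emcn*, *Esam* and *Cldn5* were at 0 counts in all Fb-Skn libraries, and *Cdh5*, the cadherin of endothelial junctions, was at 1.78 ± 0.0414 TPM in Fb-Epn and 0.0968 ± 0.0436 in Fb-Par. The endothelial receptors *Tie1* and *Tek*, named after their values were seen, were also lowest in Fb-Skn, *Tie1* at 4.19 ± 0.520 TPM in Fb-Epn, compared with 0.682 ± 0.137 in Fb-Par and 0.0153 ± 0.0265 in Fb-Skn, and *Tek* at 8.37 ± 0.373, 10.2 ± 0.552 and 1.197 ± 0.261 TPM in the same order of types. The 5 keratinocyte markers were at or under 2.05 TPM in sum. The part of macrophages, Schwann cells, endothelial cells or mural cells in the levels of the analysed genes was not tested.

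**Figure D3:**
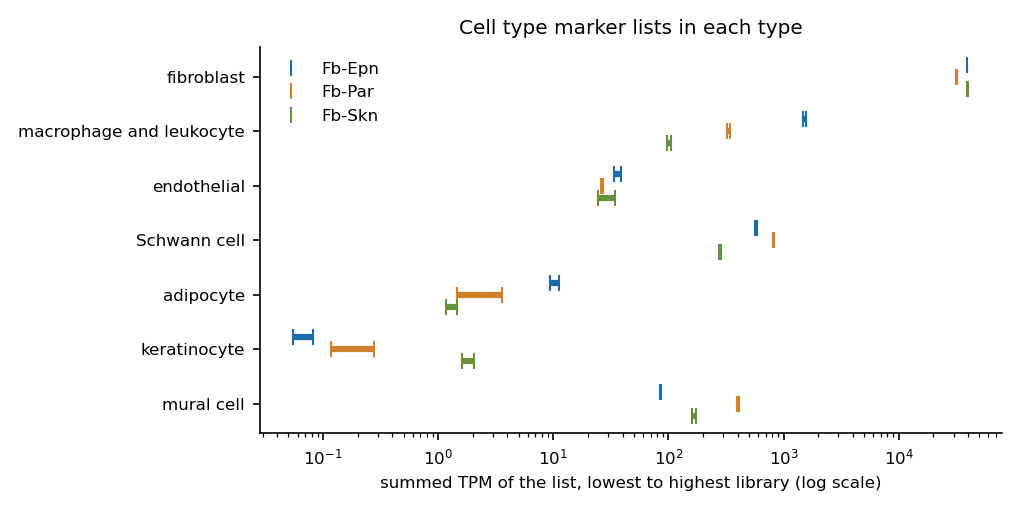
Summed TPM of 7 cell type marker lists on a logarithmic x axis, drawn as a bar from the lowest to the highest of the 3 libraries of each type. Macrophage and leukocyte markers are highest in Fb-Epn (1485 to 1572 TPM), Schwann cell markers in Fb-Par (806 to 826 TPM), and adipocyte markers reach at most 11.2 TPM.

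Markers of mature fat cells were low or absent. The 6 adipocyte markers summed to 9.31 to 11.2 TPM in Fb-Epn, 1.46 to 3.60 in Fb-Par and 1.16 to 1.46 in Fb-Skn. *Cfd*, the secreted protease adipsin, made up nearly all of this in Fb-Epn, at 9.82 ± 0.857 TPM (SD, n = 3) against 2.53 ± 0.989 in Fb-Par and 0.454 ± 0.264 in Fb-Skn, and it was higher in Fb-Epn than in either other type (adjusted p = 0.00016 and 1.1e-06). *Adipoq* and *Plin1*, which mark the mature fat cell, had at most 6 and 4 counts in any library, and *Cidec* had 0 counts in all 9. *Lep* ran against the order of the sum, with 0 counts in Fb-Epn and Fb-Par. In Fb-Skn it had 8 to 15 counts per library, at 0.729 ± 0.220 TPM. The wider list of 13 mature adipocyte genes had 6 tested genes, of which 2 were higher and 1 lower in Fb-Epn than Fb-Skn, 1 was higher and 2 lower in Fb-Epn than Fb-Par, and 4 were higher and 1 lower in Fb-Par than Fb-Skn. *Cidea*, a lipid droplet protein of brown fat cells named after its values were seen, was at 8.96 ± 0.547 TPM in Fb-Epn and 7.83 ± 0.240 in Fb-Par, against 0.621 ± 0.802 in Fb-Skn, with at most 26 counts in a library, and it was higher in both nerve-derived types than Fb-Skn (adjusted p = 4.6e-05 and 8.8e-05). *Ucp1*, a brown fat gene of the same list, had 0 counts in all 9 libraries. *Slc2a4*, the insulin-responsive glucose transporter, was at 1.61 ± 0.296 TPM in Fb-Par, 0.185 ± 0.200 in Fb-Epn and 0.0801 ± 0.00596 in Fb-Skn. The latter levels rest on 7 counts in all in Fb-Epn and 3 in Fb-Skn, which did not differ past the threshold (edgeR, adjusted p = 0.45). *Adrb3*, the beta-3 adrenergic receptor, was highest in Fb-Skn, at 3.53 ± 0.451 TPM, against 0.281 ± 0.171 in Fb-Par and 0.0577 ± 0.0503 in Fb-Epn. These lower levels rest on 9 counts in all in Fb-Par and 2 in Fb-Epn, which did not differ past the threshold (edgeR, adjusted p = 0.064).

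The rest of lipid metabolism and of the adipogenic network was followed in 11 gene lists of 188 symbols, of which 149 had a tested row. These lists were written with earlier results of these data known, so their counts describe the data and are read beside the shares of all tested genes given above. Against Fb-Skn, 40 of the 149 tested genes were higher and 46 lower in Fb-Epn, where 23.0% and 20.9% of all tested genes were. Between Fb-Epn and Fb-Par 40 were higher and 42 lower in Fb-Epn (20.2% and 18.6% of all tested genes). Between Fb-Par and Fb-Skn 51 were higher and 50 lower in Fb-Par (23.2% and 22.4% of all tested genes). The split of all called genes depended on the scaling, since 52.3% of those called between Fb-Epn and Fb-Skn were higher in Fb-Epn after TMM normalization, 63.7% by library size alone and 69.0% with limma on log2(TPM + 1). For Fb-Par against Fb-Skn the same shares were 50.8%, 61.9% and 66.9%. On the TPM scale the median of all genes stood 0.126 (Fb-Epn) and 0.123 (Fb-Par) above that of Fb-Skn in log2 units, and the edgeR values given here are relative to the TMM scaling.

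**Figure D4:**
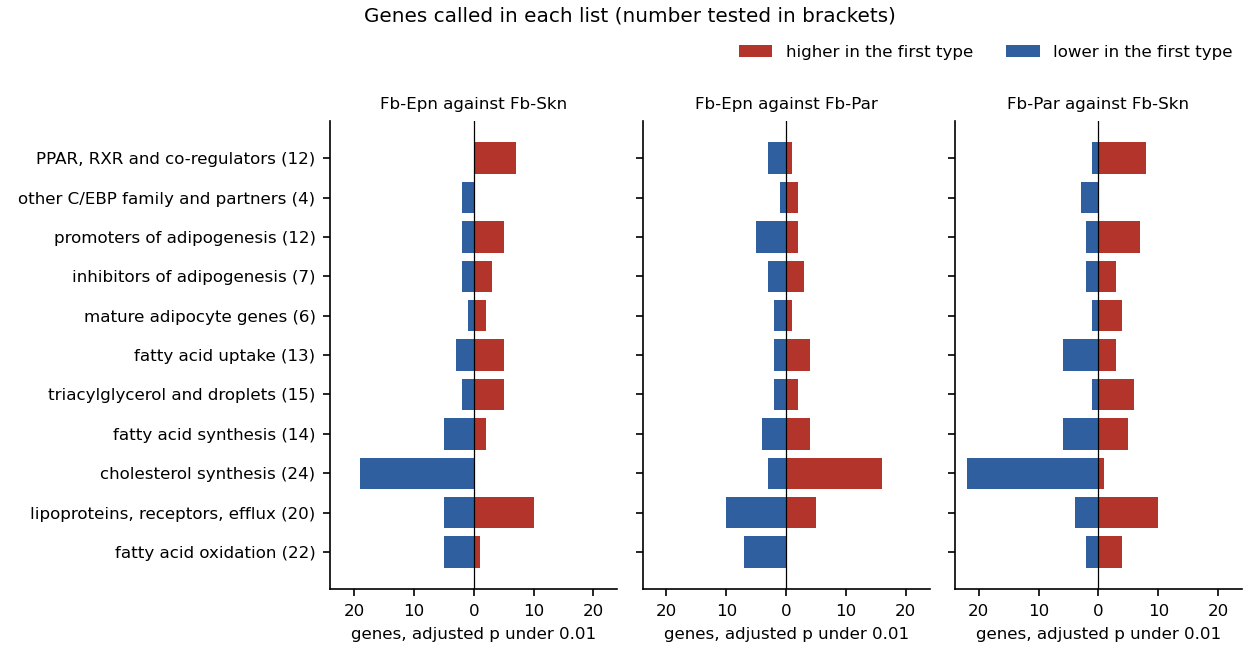
Number of genes with an adjusted p under 0.01 in each of 11 gene lists and 3 comparisons, with bars to the right for genes higher in the first-named type and to the left for genes lower in it. The longest bars belong to cholesterol synthesis, with 19 of 24 genes lower in Fb-Epn and 22 of 24 lower in Fb-Par than Fb-Skn.

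Cholesterol synthesis was the list with the most called genes in each comparison, and its most frequent order of types was that of *Scd*. The list held 24 genes of the mevalonate and sterol pathway and its regulators, all tested. In Fb-Epn 19 were lower and 0 higher than Fb-Skn, with a median log2 fold change of -0.54. In Fb-Par 22 were lower and 1 higher than Fb-Skn, with a median of -1.19. Between the nerve-derived types 16 were higher and 3 lower in Fb-Epn, with a median of 0.55. By mean TPM, 16 of the 24 followed the order Fb-Skn, Fb-Epn, Fb-Par, as *Scd* did, against 12.7% of all tested genes. Under every alternative tried the counts kept these directions, with 16 to 19 genes lower in Fb-Epn and 21 to 22 lower in Fb-Par than Fb-Skn.

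*Stard4*, a carrier of cholesterol within the cell, showed the largest rise of the list from Fb-Par to Fb-Epn, from 3.09 ± 0.686 to 7.91 ± 0.295 TPM (SD, n = 3, log2 fold change 1.37, SE 0.20, adjusted p = 3.8e-05). *Scap*, which escorts the sterol-sensing transcription factors, was the 1 gene of the list that was higher in Fb-Par than Fb-Skn, at 73.5 ± 0.076 against 56.3 ± 6.11 TPM (log2 fold change 0.24, SE 0.06, adjusted p = 0.0033).

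**Figure D5:**
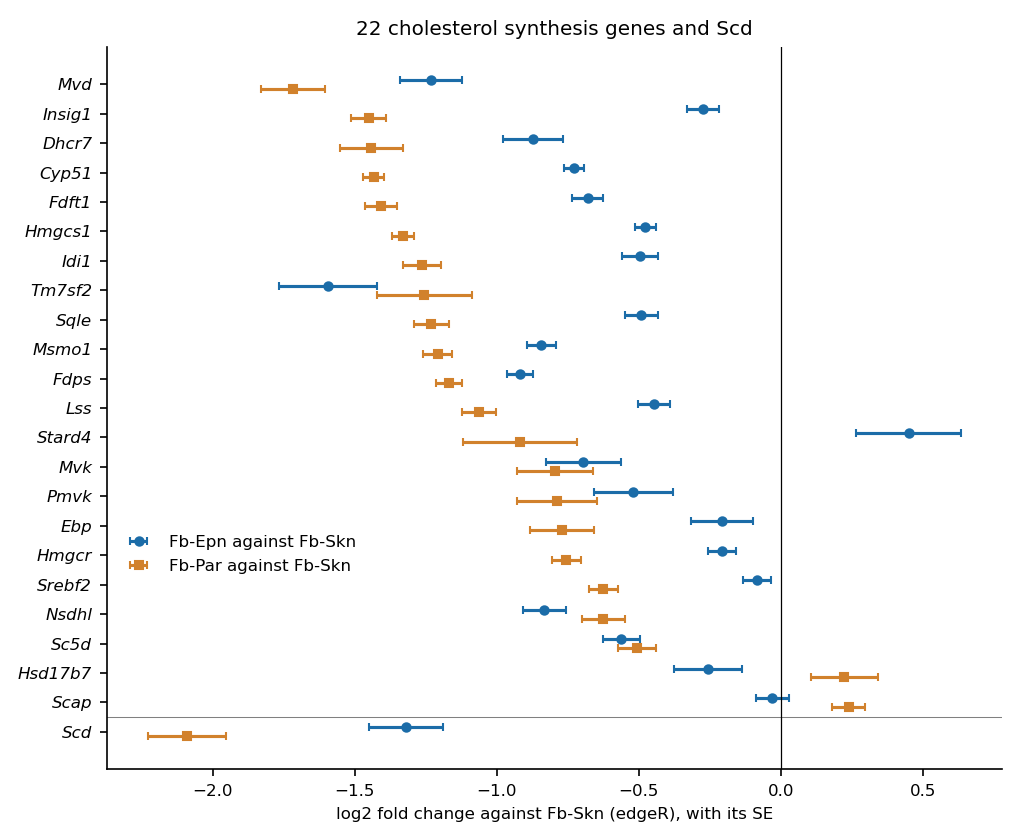
Log2 fold change against Fb-Skn of 22 of the 24 cholesterol synthesis genes and, below the line, *Scd*, with the SE of edgeR's estimate, for Fb-Epn (circles) and Fb-Par (squares). Most squares lie further left than the circles, and *Scd* lies at -1.32 and -2.09.

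The lipoprotein, receptor and cholesterol efflux genes, the company of *Apoe*, moved less uniformly. Of 20 tested, 10 were higher and 5 lower in Fb-Epn than Fb-Skn, 5 were higher and 10 lower in Fb-Epn than Fb-Par, and 10 were higher and 4 lower in Fb-Par than Fb-Skn. *Ch25h*, the cholesterol 25-hydroxylase that macrophages induce, had the order of *Apoe*, at 18.8 ± 1.20 TPM (SD, n = 3) in Fb-Epn, compared with 5.17 ± 1.73 in Fb-Par and 1.15 ± 0.314 in Fb-Skn, and it was higher in Fb-Epn than Fb-Skn (log2 fold change 3.85, SE 0.28, adjusted p = 2.2e-08). The lipid carrier *Apod* had another order than *Apoe*. It stood at 45.2 ± 4.35 TPM in Fb-Par, against 1.17 ± 0.322 in Fb-Epn and 0.127 ± 0.220 in Fb-Skn, where 2 counts in all were found. Its difference between Fb-Epn and Fb-Par was -5.21 on the log2 scale (SE 0.27, adjusted p = 7.4e-10). *Lcat*, the enzyme that esterifies cholesterol on lipoproteins, was 2.01-fold higher in Fb-Skn than Fb-Epn (log2 fold change -1.004, SE 0.25, adjusted p = 0.004).

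Among the regulators around PPARγ, 12 genes of PPARs, RXRs and their co-regulators were tested, of which 7 were higher and 0 lower in Fb-Epn than Fb-Skn and 8 were higher and 1 lower in Fb-Par than Fb-Skn. *Prdm16*, a co-regulator of brown fat identity, was at 2.16 ± 0.285 TPM in Fb-Epn, compared with 1.51 ± 0.119 in Fb-Par and 0.248 ± 0.0742 in Fb-Skn (SD, n = 3) and had the largest rise over Fb-Skn in both (log2 fold change 2.97, SE 0.24, adjusted p = 6.9e-08 in Fb-Epn and 2.45, SE 0.24, adjusted p = 6.8e-07 in Fb-Par). *Ppard*, the paralog of *Pparg*, did not follow it, being lower in Fb-Par than Fb-Skn at 11.9 ± 1.09 against 15.3 ± 0.273 TPM (log2 fold change -0.51, SE 0.08, adjusted p = 3.9e-05). Between the nerve-derived types 1 gene of the list was higher and 3 were lower in Fb-Epn, with *Ncoa3*, a nuclear receptor coactivator, changing most (log2 fold change -0.48, SE 0.09, adjusted p = 0.00034). The count of 7 called genes between Fb-Epn and Fb-Skn was 4 without Fb-Epn replicate 1, Fb-Epn replicate 2 or Fb-Skn replicate 1. That of 4 between Fb-Epn and Fb-Par was 2 without Fb-Par replicate 2, and also with limma on log2(TPM + 1) or log2(TPM + 0.1). Of 4 tested C/EBP relatives and partners, 0 were higher and 2 lower in Fb-Epn than Fb-Skn, 0 were higher and 3 lower in Fb-Par than Fb-Skn, and 2 were higher and 1 lower in Fb-Epn than Fb-Par. These differences were small, the largest being that of *Ddit3*, a stress-induced C/EBP that blocks its partners, at 81.8 ± 0.557 TPM in Fb-Epn against 109 ± 6.88 in Fb-Skn (log2 fold change -0.56, SE 0.07, adjusted p = 5e-06). The 3 calls between Fb-Epn and Fb-Par became 1 on leaving out Fb-Epn replicate 1 or 2 or Fb-Par replicate 2 or 3, and also with DESeq2. With limma on log2(TPM + 1) or log2(TPM + 0.1), 1 gene was called in either nerve-derived type against Fb-Skn.

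Of 12 tested genes that promote adipogenesis, 5 were higher and 2 lower in Fb-Epn than Fb-Skn, 7 were higher and 2 lower in Fb-Par than Fb-Skn, and 2 were higher and 5 lower in Fb-Epn than Fb-Par. *Ebf2*, a transcription factor of brown and beige fat precursors, had the order of *Pparg* and the largest change, with 36.7 ± 1.11 TPM in Fb-Par, 16.0 ± 1.03 in Fb-Epn and 0.172 ± 0.0585 in Fb-Skn (SD, n = 3) and an adjusted p of 1.8e-15 for Fb-Par against Fb-Skn. The growth factor gene *Bmp4* was at 26.7 ± 0.872 TPM in Fb-Par against 3.34 ± 0.0754 in Fb-Epn (log2 fold change -2.98, SE 0.15, adjusted p = 5.4e-10) and 1.37 ± 0.438 in Fb-Skn. *Egr2* acts upstream of *Cebpb* in preadipocytes and is also the transcription factor of myelinating Schwann cells. Like *Cebpb* it was highest in Fb-Epn, but *Egr2* was lowest in Fb-Skn and *Cebpb* was lowest in Fb-Par. The level of *Egr2* was 45.1 ± 1.53 TPM in Fb-Epn against 23.2 ± 0.512 in Fb-Par and 4.00 ± 0.365 in Fb-Skn. *Klf5* ran the other way and was 24.8 ± 1.06 TPM in Fb-Skn, 14.1 ± 0.765 in Fb-Epn and 11.5 ± 0.492 in Fb-Par, with a log2 fold change of -1.26 (SE 0.07, adjusted p = 2.3e-09) in Fb-Par against Fb-Skn.

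Inhibitors of adipogenesis were as mixed, with 7 tested genes of which 3 were higher and 2 lower in either nerve-derived type than Fb-Skn, and 3 were higher and 3 lower in Fb-Epn than Fb-Par. *Dlk1*, the preadipocyte factor Pref-1, was at 8.21 ± 1.21 TPM in Fb-Epn, compared with 1.74 ± 0.496 in Fb-Par and 0.174 ± 0.302 in Fb-Skn (SD, n = 3) and passed the test in both nerve-derived types against Fb-Skn (adjusted p = 1.5e-06 and 0.0012). The Fb-Skn level of *Dlk1* rests on 4 counts in all, found in the same library. *Gata3*, which represses *Pparg* in preadipocytes, was lowest where *Pparg* was highest, at 0.535 ± 0.267 TPM in Fb-Par, 4.19 ± 0.523 in Fb-Epn and 8.17 ± 0.690 in Fb-Skn (log2 fold change of Fb-Par over Fb-Skn -4.04, SE 0.27, adjusted p = 9.3e-09). The Notch target *Hes1* was 27.4 ± 3.43 TPM in Fb-Epn, compared with 82.2 ± 1.70 in Fb-Par and 122 ± 4.57 in Fb-Skn (log2 fold change of Fb-Epn over Fb-Skn -2.30, SE 0.08, adjusted p = 3.1e-12).

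In the list of fatty acid uptake and activation, to which *Fabp4* and *Lpl* relate, 13 genes were tested. Of these, 5 were higher and 3 lower in Fb-Epn than Fb-Skn, 4 were higher and 2 lower in Fb-Epn than Fb-Par, and 3 were higher and 6 lower in Fb-Par than Fb-Skn. *Angptl4*, a PPAR target whose protein inhibits LPL, was at 23.2 ± 1.73 TPM in Fb-Epn, compared with 22.8 ± 2.08 in Fb-Par and 0.449 ± 0.201 in Fb-Skn (SD, n = 3), a log2 fold change of 5.48 (SE 0.21, adjusted p = 1.7e-11) and 5.45 (SE 0.21, adjusted p = 1.7e-11) over Fb-Skn. *Lpl* itself differed by at most 1.28-fold among the same types. *Fabp5*, a paralog of *Fabp4*, had a different order from it, with 484 ± 27.0 TPM in Fb-Epn, compared with 121 ± 4.62 in Fb-Par and 439 ± 17.4 in Fb-Skn, and was lower in Fb-Par than Fb-Skn (log2 fold change -2.01, SE 0.06, adjusted p = 7.7e-13). *Lipg*, the endothelial lipase of the family of *Lpl*, was at 1.4997 ± 0.488 TPM in Fb-Epn and, from 1 count in all, 0.0181 ± 0.0314 in Fb-Par (adjusted p = 1.1e-05). *Slc27a3*, a fatty acyl-CoA synthetase of the transporter family, was lower in Fb-Epn than Fb-Skn (log2 fold change -1.24, SE 0.10, adjusted p = 1e-07).

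Around *Plin2*, 15 genes of triacylglycerol synthesis and lipid droplets were tested, with 5 higher and 2 lower in Fb-Epn than Fb-Skn, 2 higher and 2 lower in Fb-Epn than Fb-Par, and 6 higher and 1 lower in Fb-Par than Fb-Skn. Without Fb-Par replicate 3, the 4 calls between Fb-Epn and Fb-Par became 2. *G0s2*, whose protein inhibits the first lipase of the droplet, was at 218 ± 5.63 TPM in Fb-Epn, compared with 11.02 ± 0.442 in Fb-Par and 6.15 ± 3.21 in Fb-Skn (SD, n = 3). Its log2 fold change in Fb-Epn was 4.31 (SE 0.15, adjusted p = 7.9e-12) over Fb-Par and 5.02 (SE 0.17, adjusted p = 3.8e-12) over Fb-Skn. *Mgll*, the lipase of the last step, was highest in Fb-Par at 44.1 ± 3.49 TPM, against 33.1 ± 3.42 in Fb-Epn and 7.65 ± 0.163 in Fb-Skn (log2 fold change of Fb-Par over Fb-Skn 2.37, SE 0.12, adjusted p = 3e-10). *Bscl2*, which encodes the droplet assembly protein seipin, was lower in Fb-Par than Fb-Skn (log2 fold change -0.996, SE 0.08, adjusted p = 3.8e-08) and in Fb-Epn than Fb-Skn (log2 fold change -0.66, SE 0.07, adjusted p = 3e-06).

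Fatty acid synthesis and desaturation, the pathway of *Scd*, showed no common direction over its 14 tested genes. In Fb-Epn 2 were higher and 5 lower than Fb-Skn, in Fb-Par 5 were higher and 6 lower than Fb-Skn, and 4 were higher and 4 lower in Fb-Epn than Fb-Par. *Fads2*, the delta-6 desaturase of polyunsaturated fatty acids, had the order of *Apoe* at 85.0 ± 4.91 TPM in Fb-Epn, compared with 53.4 ± 7.36 in Fb-Par and 20.2 ± 2.24 in Fb-Skn (SD, n = 3), with a log2 fold change of 1.94 (SE 0.10, adjusted p = 9.1e-10) in Fb-Epn over Fb-Skn. Its neighbour in the family, *Fads3*, was lower in Fb-Epn than Fb-Skn at 163 ± 5.96 against 259 ± 6.67 TPM (log2 fold change -0.81, SE 0.04, adjusted p = 3e-10). *Elovl4*, an elongase of very long chains, was highest in Fb-Par at 8.35 ± 0.966 TPM (log2 fold change 1.44, SE 0.17, adjusted p = 3.7e-06 over Fb-Skn).

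Of 22 tested fatty acid oxidation genes, 16 were uncalled between Fb-Epn and Fb-Skn, 15 between Fb-Epn and Fb-Par and 16 between Fb-Par and Fb-Skn. Most of all tested genes were uncalled too, as 43.9%, 38.8% and 45.6% of them were called in these comparisons. Of the called genes of the list, 1 was higher and 5 lower in Fb-Epn than Fb-Skn. Between Fb-Epn and Fb-Par 0 were higher and 7 lower in Fb-Epn. In Fb-Par 4 were higher and 2 lower than Fb-Skn. By mean TPM, whether called or not, 9 of the 22 had the order of *Pparg*, from Fb-Par over Fb-Epn to Fb-Skn, against 26.4% of all tested genes. Another 7 had the order Fb-Par, Fb-Skn, Fb-Epn, against 13.4%. *Pdk4* and *Cpt1a* were among the 9. *Pdk4*, a PPAR-responsive kinase that turns cells from glucose to fatty acid use, was at 6.91 ± 0.702 TPM in Fb-Par, 0.409 ± 0.296 in Fb-Epn and 0.133 ± 0.134 in Fb-Skn (SD, n = 3), with a log2 fold change of -4.03 (SE 0.43, adjusted p = 2.2e-06) in Fb-Epn against Fb-Par. The lower *Pdk4* levels rest on 10 counts in all in Fb-Epn and 3 in Fb-Skn. These did not differ past the threshold (edgeR, adjusted p = 0.15). *Cpt1a*, the carnitine transferase that admits fatty acids to mitochondria, was at 25.8 ± 1.93 TPM in Fb-Par, 11.03 ± 0.302 in Fb-Epn and 5.37 ± 0.767 in Fb-Skn, and its rise in Fb-Epn over Fb-Skn was 0.89 on the log2 scale (SE 0.11, adjusted p = 6.6e-06). *Cpt1c*, the member of its family found mainly in the brain, was lower in Fb-Epn than Fb-Skn (log2 fold change -0.99, SE 0.11, adjusted p = 2.3e-06).

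For each analysed gene the tested gene with the most similar profile was found as the highest Pearson's r of TMM-scaled log2 CPM (counts scaled to library size) over the 9 libraries. These r describe 9 points that fall into 3 types, and between 77 and 495 genes had an r above 0.95 with a given gene. The nearest gene was *AC114111.1* for *Pparg* (r = 0.9962), *Cnp* for *Cebpa* (0.9983), *Cdc20* for *Cebpb* (0.9954), *Cdh5* for *Cebpd* (0.9971), *Tmem132e* for *Fabp4* (0.9984), *Emc1* for *Lpl* (0.9792), *Kctd11* for *Plin2* (0.9857), *Limch1* for *Apoe* (0.9982) and *Osr1* for *Scd* (0.9974). *Cnp*, a protein of myelinating cells, was at 105 ± 2.38 TPM (SD, n = 3) in Fb-Par, 85.1 ± 1.73 in Fb-Epn and 43.6 ± 2.50 in Fb-Skn. *Osr1*, a transcription factor of connective tissue precursors, was at 54.4 ± 1.62 TPM in Fb-Skn, 29.2 ± 2.55 in Fb-Epn and 19.3 ± 0.440 in Fb-Par.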

How the data were processed

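Poly(A) RNA of 9 samples of cultured fibroblasts was made into directional libraries and sequenced in paired ends. Per the labels, the submitters' processing notes name FastQC 0.11.7, Trimmomatic 0.38, HISAT2 2.1.0, featureCounts 1.6.3 and the rn6 build, while the annotation release and the strand setting of the counting are not given in the sources used here. The authors deposited raw counts per gene, which were used for all tests. The authors deposited TPM for the same genes, which were used for levels. The deposited FPKM were not used. Libraries held 10084584 to 12310506 counts, TMM factors lay between 0.955 and 1.03, and edgeR's common dispersion gave a coefficient of variation of 8.25% within types. Pairs of libraries of 1 type differed by more than counting noise.

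Counts were tested with edgeR 4.0.16 in R 4.3.3 (TMM normalization, default expression filter, quasi-likelihood F test), fitted once to the 9 libraries with 3 contrasts. P-values were adjusted by Benjamini-Hochberg over all 13273 tested genes and called under 0.01. A log2 fold change beyond 2 in either direction was further required of DE genes. Where all libraries of a type had 0 counts, the fold is a lower bound against 3 counts per library, and where a type had 1 to 3 counts per library the ratio of summed counts is given with its exact binomial interval. Counting intervals and floors cover counting error only. The edgeR steps were tested on simulated counts. Figures were made with matplotlib 3.10.9.

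The analysed genes and the gene lists were chosen with earlier results of these data known. From each list the tested genes with the largest positive and negative change past the threshold in each comparison were eligible to be named. A few genes of the lists are counted in them but not reported singly here. Alternatives were RLE, upper-quartile and library size scaling, 2 other filters, DESeq2 1.42.0, limma 3.58.1 on log2(TPM + 1) and log2(TPM + 0.1), only the types compared, a replicate block, each library left out, an adjusted p under 0.05, and a test against a log2 fold change of 2.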

Additional observations from a re-analysis of the deposited data

How the results depend on the processing

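Of the fold changes of the 9 genes under the alternatives, 492 kept their direction and their side of the threshold, 7 lost the threshold and 7 changed sign. All 7 changes of sign were *Lpl* in Fb-Par against Fb-Skn, which passed no test, at 0.077 by library size alone, 0.00495 with at least 10 counts in every library, 0.13 with limma on log2(TPM + 1) and on log2(TPM + 0.1), 0.0066 with only the types compared, 0.019 without Fb-Par replicate 3 and 0.00262 without Fb-Skn replicate 3, and with 1 library left out it ranged from -0.033 to 0.019. The 7 losses were *Plin2* in Fb-Par against Fb-Skn. The number of DE genes among the 9 fell from 4 to 2 between Fb-Epn and Fb-Skn, from 1 to 0 between Fb-Epn and Fb-Par and from 5 to 3 between Fb-Par and Fb-Skn under the filter of 10 counts in every library, which removes *Pparg* and *Fabp4*. It was 0 between Fb-Epn and Fb-Par with limma on log2(TPM + 1), and 0 there and 3 between Fb-Par and Fb-Skn in the test against a log2 fold change of 2. With 1 library left out, 9 genes passed between Fb-Epn and Fb-Skn and between Fb-Epn and Fb-Par and 7 to 8 between Fb-Par and Fb-Skn, and DE genes numbered 4, 1 and 5. Of the list counts, 601 stayed within 1.5 times their value and 26 did not. Deviations of libraries with the same replicate number correlated between -0.080 and 0.020, so the numbers were not taken as pairs. Adding a replicate block to the model left the 9 genes at 9, 9 and 8 called and called 5580, 4859 and 5799 genes in all. Depth limits *Pparg* and *Fabp4* in Fb-Skn and *Pparg* in Fb-Epn most.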
